A study of Mus musculus with 7 samples.

Results

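Collagens are the main structural proteins of the extracellular matrix, and each molecule winds 3 chains into a triple helix, either copies of 1 chain or a mix of chains from different genes. Collagen chain genes were taken as the rows of the deposited count table whose identifier maps to a mouse symbol made of Col, a number, the letter a and a number. There were 44 such genes among 57010 gene identifiers, 11 of them fibrillar, 8 of the basement membrane, 6 of type VI and 19 others. RNA-Seq was performed on mature white adipocytes freed by collagenase from the perigonadal fat of male mice, in 3 libraries from FFA2 fl/fl mice and 4 from Adipoq-F2-KO mice. Both groups carry the floxed *Ffar2* alleles. The Adipoq-F2-KO mice also carry Cre recombinase under the adiponectin promoter, which removes the receptor FFA2 in adipocytes and not in the other cells of the depot, and their FFA2 fl/fl littermates served as floxed controls. All mice were 20 weeks old and fed normal chow. Each library is listed as a separate sample of its genotype, and the labels do not state whether a library came from 1 mouse or from several.

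Fibrillar chains (types I, II, III, V, XI, XXIV and XXVII) assemble into the cross-striated fibrils of connective tissue. Type IV chains form the sheet-like network of basement membranes, which surrounds every adipocyte and every capillary, and types XV and XVIII are proteoglycans of the basement membrane zone. Type VI chains form beaded microfibrils between the basement membrane and the fibrils and are abundant in white fat. The remaining chains bind to the surface of fibrils, build short-chain networks or span the cell membrane.

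The genes of the type IV chains lie head to head in pairs, so that each pair starts from a shared stretch of DNA. In the deposited coordinates, 71 bases separate *Col4a4* from *Col4a3* on chromosome 1 and 1308 bases separate *Col4a6* from *Col4a5* on the X chromosome, while the first exons of *Col4a1* and *Col4a2* on chromosome 8 share 22 bases on opposite strands. These are shown because *Col4a1* and *Col4a2* were the most abundant collagen transcripts in these libraries. The RefSeq start sites enclose the same number of bases at chr8:11312805-11312826 (GRCm38.p6, plus strand), with the letters GGGCGG in capitals.
Col4a1 and Col4a2 shared start: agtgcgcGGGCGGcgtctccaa

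The 250 bases before the start of 3 further chains are shown for the genes with the smallest p in the fibrillar, type VI and other classes, which are not those with the largest log2 fold changes. They come from RefSeq (GRCm38.p6), are written 5′ to 3′ on the strand of the gene, and lie at chr1:45311288-45311537 (plus strand) for *Col3a1*, chr1:90843972-90844221 (minus strand) for *Col6a3* and chr16:57754738-57754987 (minus strand) for *Col8a1*. Capitals mark GGGCGG (the GC box), CCAAT or TATAAA on either strand.
Col3a1: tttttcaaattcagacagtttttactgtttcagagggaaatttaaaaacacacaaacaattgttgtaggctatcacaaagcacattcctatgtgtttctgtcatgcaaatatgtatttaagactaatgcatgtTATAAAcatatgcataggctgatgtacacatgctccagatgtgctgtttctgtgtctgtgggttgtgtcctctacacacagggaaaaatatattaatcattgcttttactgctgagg
Col6a3: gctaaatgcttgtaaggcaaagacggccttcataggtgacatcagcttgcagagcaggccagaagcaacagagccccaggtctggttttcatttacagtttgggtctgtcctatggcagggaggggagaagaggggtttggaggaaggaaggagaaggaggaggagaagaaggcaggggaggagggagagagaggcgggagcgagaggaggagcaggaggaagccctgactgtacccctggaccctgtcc
Col8a1: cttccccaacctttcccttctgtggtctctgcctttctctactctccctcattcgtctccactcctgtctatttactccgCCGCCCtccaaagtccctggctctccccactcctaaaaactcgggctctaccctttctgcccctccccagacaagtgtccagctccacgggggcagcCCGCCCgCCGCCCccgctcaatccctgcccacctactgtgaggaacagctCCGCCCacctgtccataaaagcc
The *Col8a1* stretch held 4 copies of GGGCGG, the *Col3a1* stretch 1 TATAAA and the *Col6a3* stretch none of the 3 motifs. Of 38 start sites of 35 collagen genes in the RefSeq table, 57.9% had GGGCGG in the same window, against 32.7% of 32851 start sites of all genes. CCAAT was in 34.2% against 33.9%, and TATAAA in 13.2% against 12.4%. The rest of the 44 chains, among them *Col1a1* and *Col14a1*, had no entry there. GGGCGG is made of G and C alone, and the share of these letters in the windows of all genes was not compared. A match describes the letters in this window and is not a binding site.

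Total counts lay between 30478997 and 39992605 per library. The mitochondrial chromosome took 4.41% to 5.77% of counts in FFA2 fl/fl and 6.61% to 10.3% in Adipoq-F2-KO libraries, without overlap and highest in Adipoq-F2-KO library 4. *Ffar2*, the deleted gene, had 34.5 ± 2.77 normalized CPM (CPM, counts scaled to library size, after TMM normalization, mean ± SD, n = 3) in FFA2 fl/fl and 1.69 ± 0.634 (SD, n = 4) in Adipoq-F2-KO adipocytes (log2 fold change -4.36, standard error 0.22, edgeR adjusted p = 8.0e-06). The adipocyte marker *Adipoq* averaged 3608 ± 155 normalized CPM in controls (SD, n = 3) and 3087 ± 519 in Adipoq-F2-KO (SD, n = 4), a log2 difference of -0.23 (edgeR adjusted p = 0.386). Transcripts of other cells were present in all libraries. Summed over 12 adipocyte markers, normalized CPM lay between 48627 and 54025 in FFA2 fl/fl and between 36552 and 48265 in Adipoq-F2-KO libraries, and 11 of the 12 had a log2 fold change below 0. The sum of 16 endothelial markers lay between 1795 and 2359 against 2378 and 3787, with 15 higher, and that of 15 macrophage markers between 482 and 522 against 631 and 717, with 13 higher. For 10 mural cell markers it was 1360 to 1552 against 1472 to 2108, with 7 higher. Of 20 fibroblast and progenitor markers 18 were higher, and their sum was 750.2 to 948.5 against 963 to 1288 once *Gsn* was left out, which made up 92.7% of the list's normalized CPM and had 14617 ± 412 (SD, n = 3) and 11143 ± 1575 (SD, n = 4). With *Gsn* included, the sum was lower, at 14904 to 15892 against 10684 to 14051. Every marker of these 5 lists had counts. Adipoq-F2-KO library 4 had the lowest adipocyte sum and the highest endothelial, mural and macrophage sums, and the highest fibroblast sum without *Gsn*. The sum of 10 germ cell and epididymis markers was 118 normalized CPM in library 2 and 21.1 in library 3, against 0 to 5.17 in FFA2 fl/fl. In library 2 it was led by the germ cell genes *Prm2*, *Tnp2* and *Prm1* (54.1, 31.0 and 19.7). The epididymis genes *Adam7* and *Spag11b* were higher in library 3 (6.08 and 2.10) than in library 2 (0 and 0.243). In edgeR's test, *Lyz2* and *Cd68* of macrophages rose (log2 fold change 0.69 and 0.72, edgeR adjusted p = 0.0382 and 0.0416) and no other marker of these lists was called. That test called 0.798% of all tested genes higher and 0.217% lower. DESeq2 called 9 macrophage, 6 endothelial, 4 fibroblast and 2 germ cell markers higher, where it called 4.34% of all tested genes higher. It called 3 adipocyte markers and *Gsn* lower, where it called 1.48% of all tested genes lower. On every gene with at least 1 count, edgeR called 11 endothelial, 8 macrophage, 8 fibroblast, 6 germ cell and 4 mural markers higher, against 3.76% of genes. It called 1 adipocyte, 1 macrophage and 1 mesothelial marker lower, against 1.16% of genes. Limma voom called 3 macrophage markers higher, where it called 0.974% of all tested genes higher. Further, 4 of 7 tested mesothelial and 3 of 6 tested Schwann cell markers had a log2 fold change above 0. In bulk RNA, fewer cells of a type and less RNA per cell cannot be told apart, and the part of these other cells and of the mitochondrial share in the collagen values was not tested.

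Between the genotypes, none of the collagen chains passed an adjusted p of 0.05 in edgeR's quasi-likelihood test. Of the 44 chains, 34 passed the filter on low counts and were tested among 17039 genes, of which 0.798% were called higher and 0.217% lower, 1.02% in all. At an unadjusted p under 0.05 there were 7 chains, all higher in Adipoq-F2-KO, namely *Col6a3*, *Col8a1*, *Col14a1*, *Col4a5*, *Col3a1*, *Col6a5* and *Col4a4*. These are 20.6% of the tested chains, where 10.5% of all tested genes were higher at this level, and 0 chains were lower, where 7.37% of all tested genes were. The log2 fold change was above 0 for 25 chains (73.5%) and for 50.4% of all tested genes, with a median of 0.23 over the chains and 0.00 over all tested genes. Without FFA2 fl/fl library 3 the median over the chains was 0.43. Without overlap between the genotypes were 5 chains (14.7%), against 17.6% of all tested genes. Of these, 4 were higher (11.8% against 8.86%) and 1 was lower (2.94% against 8.72%).

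The count of called chains depended on the tool. DESeq2 called 3 chains higher, *Col6a3*, *Col14a1* and *Col8a1*, where it called 4.34% of all tested genes higher. Limma voom and edgeR on halved counts each called *Col6a3* alone, where they called 0.974% and 1.33% of genes higher. EdgeR run on every gene with at least 1 count called 6, these 3 with *Col3a1*, *Col4a5* and *Col6a5*, where it called 3.76% of 28515 genes higher. None of these fits called a chain lower, where DESeq2, limma voom, halved counts and the lenient filter called 1.48%, 0.246%, 0.288% and 1.16% of genes lower.

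**Figure D1:**
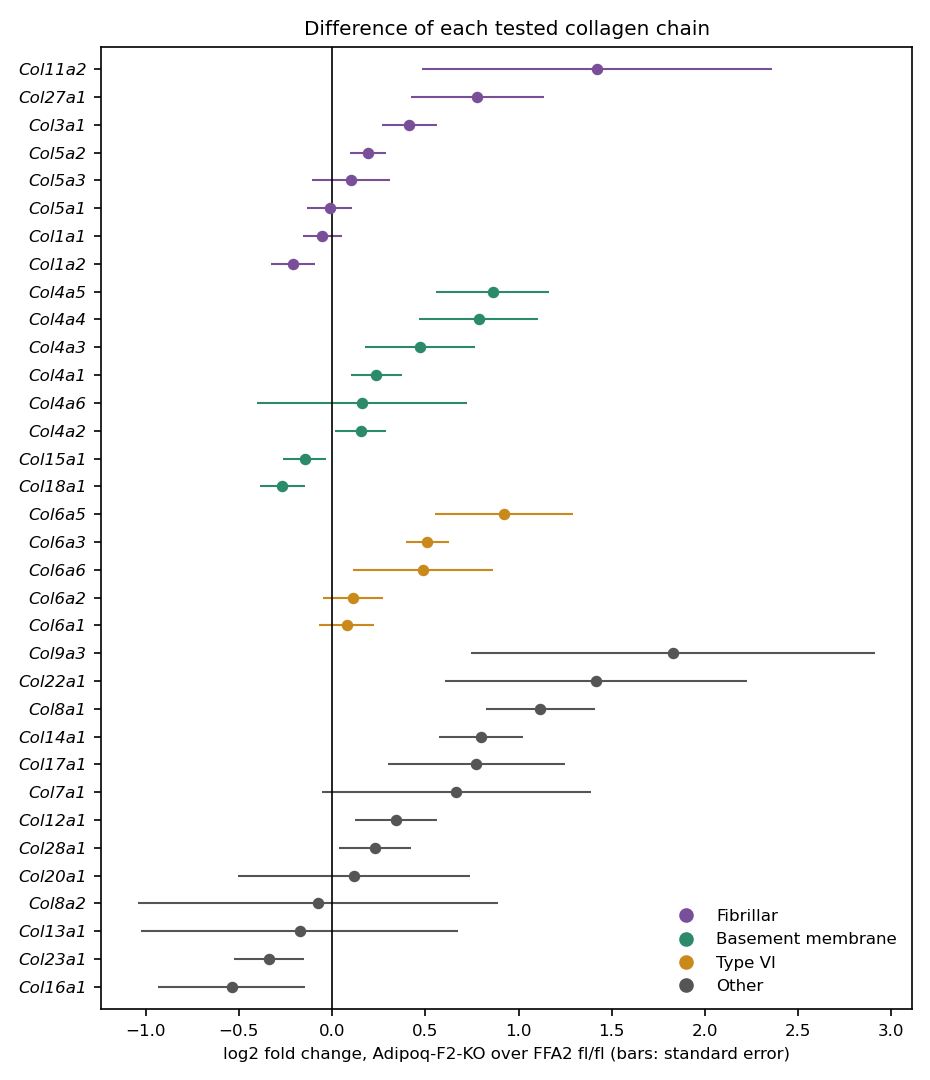
Log2 fold change (x axis, Adipoq-F2-KO over FFA2 fl/fl, bars are standard errors from edgeR) for each of the 34 tested collagen chains, grouped and coloured by class. The 5 type VI points lie above 0 with all 7 libraries in the fit, with *Col6a3* and its short bar at 0.51, while *Col1a1*, *Col1a2* and *Col5a1* lie at -0.05, -0.21 and -0.01 and the widest bars belong to chains with few counts such as *Col9a3*.

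Levels between genes were compared per length, as TPM (counts divided by exon length and scaled to the same total in each library) from the deposited counts and exon lengths. These lengths are of all annotated exons joined and can exceed the transcript in use, which lowers the TPM of a gene. For example, *Col6a1* and *Col6a2* had means of 430 and 434 normalized CPM but lengths of 4380 and 8326 bases. The order and the shares in TPM depend on these lengths. The order was led by *Col4a1* with a mean of 982 TPM over the 7 libraries and *Col4a2* with 774 TPM, followed by *Col15a1* at 457, *Col6a1* at 292, *Col5a3* at 284, *Col3a1* at 192, *Col18a1* at 158 and *Col6a2* at 155 TPM. *Col5a1*, *Col1a2*, *Col1a1* and *Col5a2* followed at 101, 93.8, 79.0 and 48.95 TPM. *Col4a1* and *Col4a2* together held between 42.8% and 49.5% of the summed collagen TPM of a library, while the chains of types I and III, the bulk collagens of connective tissue, held between 8.13% and 11.8%. The 12 most abundant chains held at least 95.7%. The first 3 places were the same in all 7 libraries. The neighbours *Col6a1* and *Col5a3* (SD over libraries 48.3 and 70.8 TPM), *Col18a1* and *Col6a2* (29.6 and 29.4 TPM), and *Col5a1* and *Col1a2* (13.9 and 16.1 TPM) differed by less than either SD. *Col3a1* (SD 36.0 TPM) and *Col18a1* differed by more than the smaller of their SDs and less than the larger. The same held for *Col1a2* and *Col1a1* (SD 16.1 and 9.92 TPM).

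**Figure D2:**
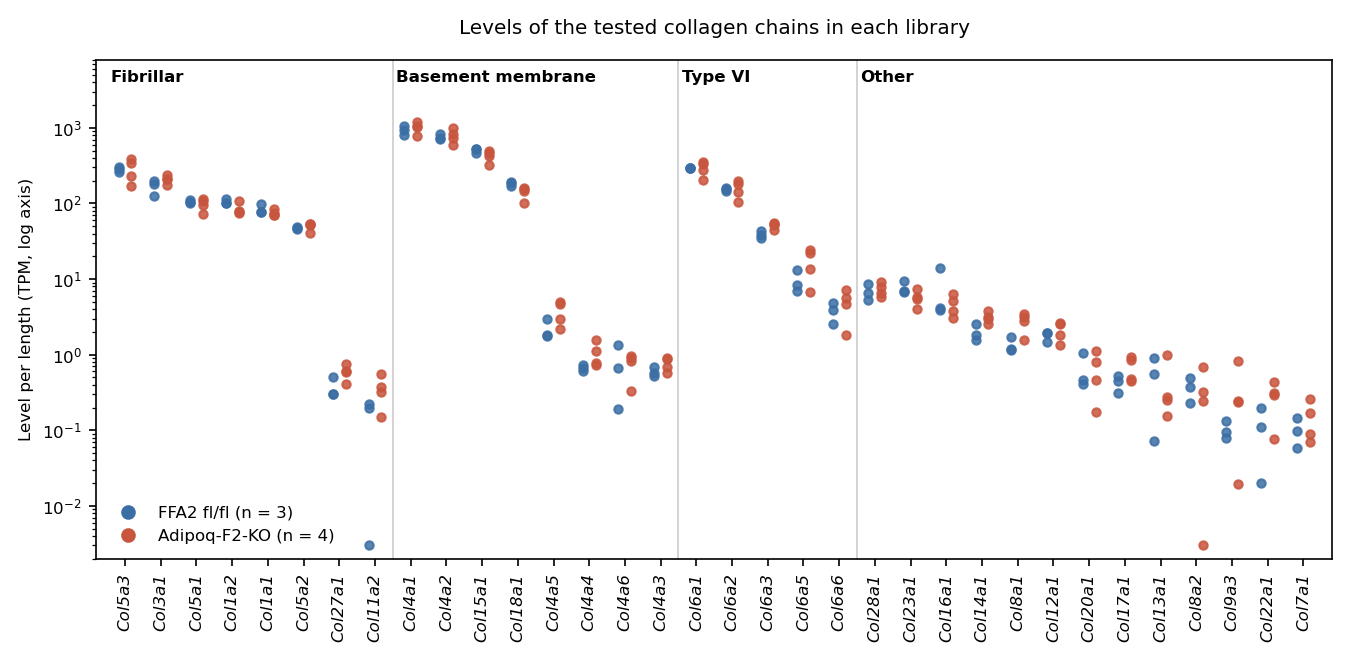
Level of each tested collagen chain in every library (y axis, TPM on a log axis, blue for the 3 FFA2 fl/fl and red for the 4 Adipoq-F2-KO libraries), ordered by mean level within class. *Col4a1* is highest at a mean of 982 TPM and the 13 tested chains of the other class have means of at most 7.11 TPM, with a single library of *Col16a1* at 13.8 TPM; values of 0 are drawn at the lower edge of the axis.

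The makeup by class was nearly the same in all 7 libraries. Basement membrane chains held between 62.9% and 65.5% of the summed collagen TPM, fibrillar chains between 20.8% and 22.3%, type VI chains between 12.7% and 14.2%, and the others between 0.665% and 1.03%. The summed level of all chains was 3520.6, 3602 and 4013 TPM in FFA2 fl/fl libraries 1 to 3 and 4418, 3662, 3965 and 2833 TPM in Adipoq-F2-KO libraries 1 to 4. The means were 3712 ± 264 (SD, n = 3) and 3719.6 ± 668 TPM (SD, n = 4), and the Adipoq-F2-KO libraries lay on both sides of the controls. TPM is scaled to the length-divided counts of all genes in a library, those of the mitochondrial chromosome included, and has no TMM correction. The place of a library can therefore differ between TPM and normalized CPM, and the part of each of these steps was not tested. For *Col4a1*, Adipoq-F2-KO library 4 was below FFA2 fl/fl library 1 in TPM (783 against 802). In normalized CPM it was above that library (2174 against 1879.8). In TPM, Adipoq-F2-KO library 1 was above every control and library 4 below every control. This held in the sum of all chains as in the fibrillar, basement membrane and type VI sums. Sums were not taken in normalized CPM, so these places hold for TPM only.

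**Figure D3:**
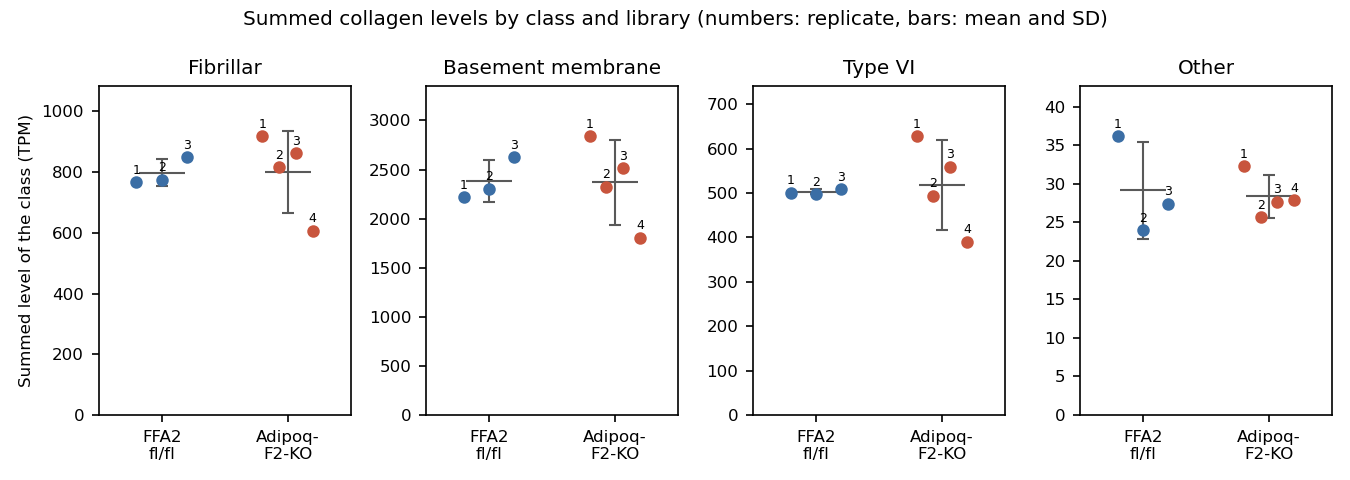
Summed level of each collagen class per library (y axis, TPM from 0 without TMM correction, numbers give the replicate, bars the mean and SD). In the fibrillar, basement membrane and type VI panels the Adipoq-F2-KO libraries spread around the FFA2 fl/fl mean, from library 4 at the bottom (1808 TPM for basement membrane chains) to library 1 at the top (2840.1 TPM).

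Among the 11 fibrillar chains, 8 were tested, with 5 above and 3 below a log2 fold change of 0 and a median of 0.15. *Col3a1* (ENSMUSG00000026043, chromosome 1 from 45350698 to 45388866 in the deposited coordinates) encodes the single chain of type III collagen, the fine fibrils of soft tissue. It had 389.8, 600.3 and 613 normalized CPM in FFA2 fl/fl libraries 1 to 3 and 705, 782, 730.3 and 633 in Adipoq-F2-KO libraries 1 to 4. Every Adipoq-F2-KO library was above every control, though library 4 only by a little, and control library 1 was far below the other 2. Its log2 fold change was 0.41 (standard error 0.15, edgeR adjusted p = 0.184) and was 0.23 to 0.54 with 1 library left out in turn, the lowest without control library 1. The exact permutation test gave p = 0.0571 (two-sided, where 0.0286 is the smallest p that 3 against 4 libraries can give).

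*Col5a3* (ENSMUSG00000004098, chromosome 9 from 20681346 to 20726363), a chain of the type V collagen that starts and narrows fibrils, was the fibrillar chain with the highest level per length. Its normalized CPM were 604, 599 and 663 in FFA2 fl/fl and 894, 529, 812 and 437 in Adipoq-F2-KO libraries. Libraries 1 and 3 of Adipoq-F2-KO were above all controls and libraries 2 and 4 below all of them. On the log2 scale the difference was 0.10 (standard error 0.21, edgeR adjusted p = 0.841). Its 2 partner chains in type V collagen differed less between libraries. *Col5a1* averaged 292 ± 10.1 normalized CPM (SD, n = 3) against 289.8 ± 45.4 (SD, n = 4), which is -0.01 on the log2 scale with a standard error of 0.12. *Col5a2*, which lies 24614 bases from *Col3a1*, averaged 146 ± 8.12 (SD, n = 3) against 167 ± 14.9 (SD, n = 4), or 0.19 on the log2 scale (edgeR adjusted p = 0.322).

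The chains of type I collagen, the main fibril of tendon, skin and scar, overlapped the controls. They are given library by library by a choice made after their values were seen. *Col1a1* had 202, 170.1 and 161 normalized CPM in FFA2 fl/fl and 153, 186, 174 and 171 in Adipoq-F2-KO libraries, with overlapping genotypes and a log2 fold change of -0.05 (standard error 0.10, edgeR adjusted p = 0.836). *Col1a2* had 397, 426 and 446 normalized CPM in FFA2 fl/fl and 321, 446, 346 and 350.0 in Adipoq-F2-KO libraries. Libraries 1, 3 and 4 of Adipoq-F2-KO were below every control and library 2 was level with the highest one, for a log2 fold change of -0.21 (standard error 0.12, edgeR adjusted p = 0.371). *Col27a1* and *Col11a2*, fibrillar chains best known from cartilage, had at most 106 and 42 counts in a library and log2 fold changes of 0.78 (standard error 0.36) and 1.42 (standard error 0.94). *Col2a1*, *Col11a1* and *Col24a1* were not tested, with at most 4, 10 and 2 counts in any library.

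All 8 basement membrane chains were tested, 6 above and 2 below a log2 fold change of 0, with a median of 0.20. *Col4a1* (ENSMUSG00000031502, chromosome 8 from 11248423 to 11362826) and *Col4a2* (ENSMUSG00000031503, from 11362805 to 11499287) encode the chains of the common type IV network and share the start shown above. *Col4a1* had 1879.8, 2318 and 2521 normalized CPM in FFA2 fl/fl and 3039, 2539, 2813 and 2174 in Adipoq-F2-KO libraries. Adipoq-F2-KO libraries 1, 2 and 3 were above every control, library 2 by a small margin, and library 4 lay within their range. On the log2 scale the difference was 0.24 (standard error 0.14, edgeR adjusted p = 0.385). *Col4a2* had 1466, 1636 and 1759 normalized CPM in FFA2 fl/fl and 2184, 1622, 1940.2 and 1459 in Adipoq-F2-KO libraries, with libraries 1 and 3 above all controls, library 2 among them and library 4 just below them. Its log2 fold change was 0.15 (standard error 0.14, edgeR adjusted p = 0.599).

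*Col4a5*, on the X chromosome, belongs to the chains best known from the kidney filter and other specialised basement membranes, and its level per length was a small part of that of *Col4a1* (3.04 against 982 TPM). It had 3.68, 4.13 and 6.39 normalized CPM in FFA2 fl/fl and 6.67, 11.0, 5.20 and 11.6 in Adipoq-F2-KO libraries, with library 3 inside the range of the controls and the other 3 above it. This is a log2 fold change of 0.86 (standard error 0.30, edgeR adjusted p = 0.176, and 0.0110 to 0.459 over 13 alternatives). *Col4a4* did not overlap between genotypes, with 2.00, 2.37 and 2.46 against 2.81, 4.01, 2.77 and 6.17 normalized CPM and a log2 fold change of 0.79 (standard error 0.32, edgeR adjusted p = 0.234). Its head-to-head neighbour *Col4a3* had 1.91 ± 0.202 (SD, n = 3) and 2.64 ± 0.555 (SD, n = 4) with overlap, and *Col4a6* 1.88 ± 1.46 (SD, n = 3) and 2.10 ± 0.773 (SD, n = 4), where Adipoq-F2-KO library 3 stood apart at 0.940.

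*Col18a1* (ENSMUSG00000001435, chromosome 10 from 76888012 to 77002382), the precursor of the fragment endostatin, was the only collagen chain that was lower without overlap. It had 407, 403 and 424 normalized CPM in FFA2 fl/fl and 381, 342, 379 and 266 in Adipoq-F2-KO libraries, so all 4 lay below the controls and library 4 farthest. The log2 fold change was -0.27 (standard error 0.12, edgeR adjusted p = 0.281), and it was -0.16 without Adipoq-F2-KO library 4. The exact two-sided permutation test gave p = 0.0857. *Col15a1*, its closest relative and the third most abundant chain, was added after its values were seen, with 1039, 989 and 1056 normalized CPM against 1042, 885, 1024 and 761. Libraries 2 and 4 of Adipoq-F2-KO lay below the controls and libraries 1 and 3 among them, for a log2 fold change of -0.15 (standard error 0.12, edgeR adjusted p = 0.541). Library 4, which was lowest in both, also had the lowest sum of adipocyte markers. Library 1 had the next lowest sum (44362 normalized CPM) and the highest values of both genes among the Adipoq-F2-KO libraries. The part of adipocyte RNA in these values was not tested.

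Of the 6 type VI chains, 5 were tested and all 5 had a log2 fold change above 0, with a median of 0.49. Without Adipoq-F2-KO library 1, *Col6a1* and *Col6a2* were at -0.0191 and -0.00706. *Col6a3* (ENSMUSG00000048126, chromosome 1 from 90693645 to 90771693) encodes the longest chain of type VI collagen, whose cleaved end is the peptide endotrophin. It had 144, 173 and 133 normalized CPM in FFA2 fl/fl libraries 1 to 3 and 223, 207, 189 and 236 in Adipoq-F2-KO libraries 1 to 4. All 4 Adipoq-F2-KO libraries were above all 3 controls, with means of 149.9 ± 20.9 (SD, n = 3) and 214 ± 20.4 (SD, n = 4). The log2 fold change was 0.51 (standard error 0.11), and its p, the smallest among the collagen chains, missed the threshold (edgeR adjusted p = 0.0577). It was 0.44 to 0.63 with 1 library left out in turn, and the adjusted p ranged from 0.00115 to 0.265 over 13 alternatives, of which 4 called the gene. The exact permutation test gave p = 0.0286, the smallest it can give.

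*Col6a1* (ENSMUSG00000001119, chromosome 10 from 76544626 to 76562002) and *Col6a2* (ENSMUSG00000020241, from 76431596 to 76459464) encode the other 2 chains of the common type VI trimer. *Col6a1* had 410.1, 432 and 407 normalized CPM in FFA2 fl/fl and 526, 399.5, 505 and 328 in Adipoq-F2-KO libraries. *Col6a2* had 406, 413 and 427 in FFA2 fl/fl and 555, 390.1, 524 and 325 in Adipoq-F2-KO libraries. In both, Adipoq-F2-KO libraries 1 and 3 were above all controls and libraries 2 and 4 below all of them, the same pattern as for *Col5a3*. The log2 fold changes were 0.08 (standard error 0.15, edgeR adjusted p = 0.823) for *Col6a1* and 0.11 (standard error 0.16, edgeR adjusted p = 0.763) for *Col6a2*.

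*Col6a5* and *Col6a6*, later-found type VI chains related to *Col6a3*, lie side by side with *Col6a4* on chromosome 9. *Col6a5* (ENSMUSG00000091345) had 20.6, 26.6 and 39.8 normalized CPM in FFA2 fl/fl and 43.2, 68.7, 22.6 and 85.1 in Adipoq-F2-KO libraries. Library 3 lay among the controls and the other 3 above them, and the log2 fold change was 0.92 (standard error 0.37, edgeR adjusted p = 0.228). *Col6a6* had 7.32, 12.0 and 13.9 in FFA2 fl/fl and 14.5, 17.1, 5.92 and 24.7 in Adipoq-F2-KO libraries, with library 3 below every control and the other 3 above, and a log2 fold change of 0.49 (standard error 0.37, edgeR adjusted p = 0.532). The order of the Adipoq-F2-KO libraries was thus 4, 2, 1, 3 in both genes, where *Col6a1* and *Col6a2* had the order 1, 3, 2, 4. The sum of fibroblast and progenitor markers other than *Gsn* was 963, 1089, 1043 and 1288 normalized CPM in Adipoq-F2-KO libraries 1 to 4, highest in library 4 as for these 2 genes, and its part in their values was not tested. *Col6a4* was not tested, with at most 10 counts in a library.

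**Figure D4:**
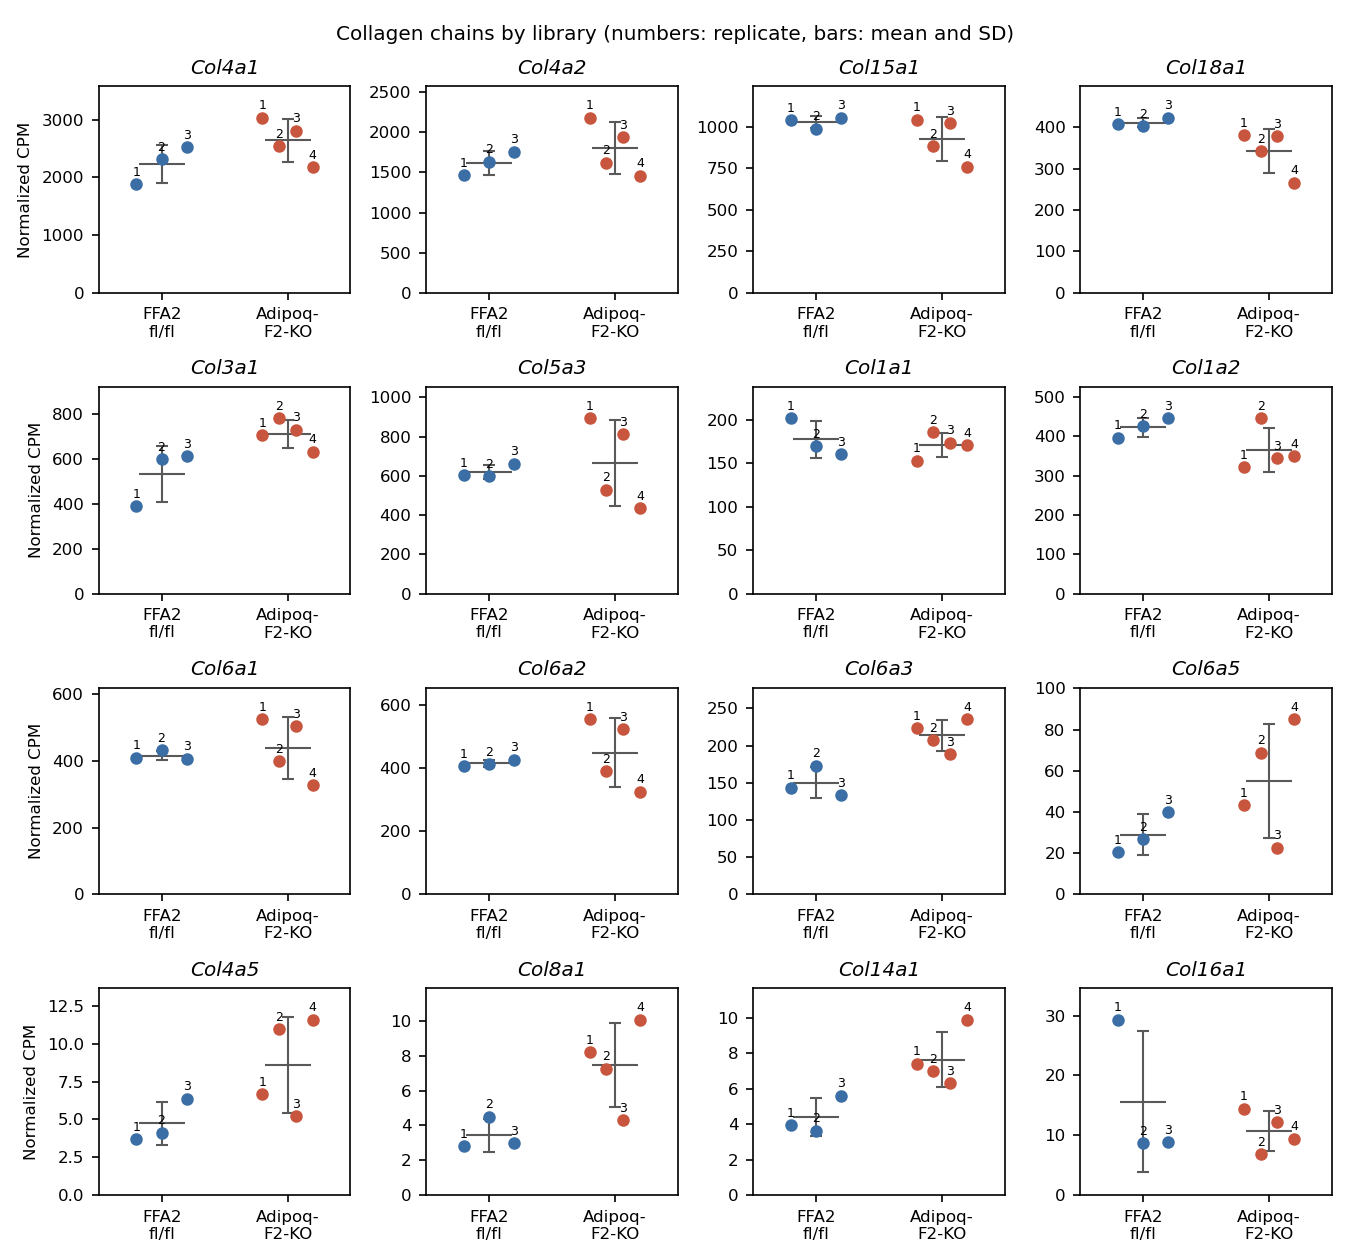
Normalized CPM of 16 collagen chains in every library (y axes from 0, numbers give the replicate, bars the mean and SD, n = 3 floxed controls and n = 4 Adipoq-F2-KO libraries). *Col6a3*, *Col3a1* and *Col14a1* show 4 Adipoq-F2-KO points above all controls and *Col18a1* 4 points below, while *Col5a3*, *Col6a1* and *Col6a2* split into libraries 1 and 3 above and 2 and 4 below the controls.

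Of the 19 other chains, 13 were tested, 9 above and 4 below a log2 fold change of 0, with a median of 0.34. *Col8a1* (ENSMUSG00000068196, chromosome 16 from 57444621 to 57575100) encodes a short network-forming chain found around vessels and in remodelled matrix. It had 2.80, 4.51 and 2.99 normalized CPM in FFA2 fl/fl and 8.23, 7.26, 4.31 and 10.1 in Adipoq-F2-KO libraries, where library 3 fell just under the highest control and the others were above. The log2 fold change was 1.12 (standard error 0.29, edgeR adjusted p = 0.0931, and 0.00123 to 0.329 over 13 alternatives). *Col14a1* (ENSMUSG00000022371, chromosome 15 from 55171146 to 55384199), which binds the surface of fibrils, had 3.95, 3.63 and 5.62 against 7.43, 6.99, 6.31 and 9.90 normalized CPM. All 4 Adipoq-F2-KO libraries were above the controls, and the log2 fold change was 0.80 (standard error 0.23, edgeR adjusted p = 0.110, and 0.0245 to 0.349 over 13 alternatives; exact permutation p = 0.0286). In both genes Adipoq-F2-KO library 4 was highest and library 3 lowest of its group.

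*Col28a1* and *Col23a1* had the highest levels per length of the other chains, at 7.11 and 6.51 TPM. *Col28a1* had 10.2, 8.74 and 13.2 normalized CPM in FFA2 fl/fl and 15.0, 10.6, 10.1 and 14.5 in Adipoq-F2-KO libraries, with overlap and a log2 fold change of 0.23 (standard error 0.19). *Col23a1*, a transmembrane chain, had 16.7, 13.1 and 12.6 against 10.5, 10.9, 14.8 and 8.55, with 3 of 4 Adipoq-F2-KO libraries below the controls and a log2 fold change of -0.34 (standard error 0.19, edgeR adjusted p = 0.367). *Col16a1*, which also sits on fibrils, had the most negative log2 fold change, -0.54 (standard error 0.40, edgeR adjusted p = 0.512). It rested on control library 1, with 29.3 normalized CPM against 8.72 and 8.85 in the other controls and 14.4, 6.83, 12.2 and 9.43 in Adipoq-F2-KO libraries, and the value was 0.29 without that library. *Col12a1* averaged 8.67 ± 1.39 normalized CPM (SD, n = 3) against 11.0 ± 3.07 (SD, n = 4). The other 7 tested chains had at most 69 counts in a library and log2 fold changes with standard errors of 0.48 to 1.08. The 6 chains not tested were *Col9a1*, *Col9a2*, *Col10a1*, *Col19a1*, *Col25a1* and *Col26a1*, with at most 14 counts in a library, and *Col19a1* had 0 counts in all 7. At the lowest depth a count of 0 allows a level of up to 0.197 CPM, taking 3 read pairs, which is 6 counts, as the limit.

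Ratios of chains that share a trimer were compared within libraries, in TPM and without a test. *Col1a1* to *Col1a2* was 0.800 ± 0.146 (SD, n = 3) in FFA2 fl/fl and 0.894 ± 0.0718 (SD, n = 4) in Adipoq-F2-KO. *Col4a1* to *Col4a2* was 1.22 ± 0.0737 (SD, n = 3) and 1.31 ± 0.0648 (SD, n = 4), and *Col6a1* to *Col6a2* 1.91 ± 0.0905 (SD, n = 3) and 1.87 ± 0.0678 (SD, n = 4). These 3 ratios overlapped between genotypes. *Col6a3* to *Col6a1* was 0.128, 0.147 and 0.120 in FFA2 fl/fl and 0.155, 0.190, 0.137 and 0.263 in Adipoq-F2-KO libraries, so that libraries 1, 2 and 4 were above all controls and library 3 was not. Lengths are of all annotated exons joined, which can exceed the transcript in use, so a ratio is compared between libraries and not with the makeup of the protein.

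The genes that fold, modify, secrete and process collagen showed no common direction. Of 35 listed genes 33 were tested, 16 with a log2 fold change above and 17 below 0 (median -0.00), and 0 were called by edgeR, with 8 higher and 4 lower at an unadjusted p under 0.05. Over all tested genes 10.5% were higher and 7.37% lower at that level. DESeq2 called 2 higher and 1 lower, where it called 4.34% and 1.48% of genes, limma voom called 0, and edgeR run on every gene with at least 1 count called 3 higher and 2 lower, where it called 3.76% and 1.16%. *Serpinh1*, the collagen chaperone HSP47, had the highest level at 527 TPM and 446 ± 22.8 (SD, n = 3) against 421 ± 106 normalized CPM (SD, n = 4). *Loxl2*, a crosslinking enzyme, had the smallest p, with 8.01, 12.7 and 11.1 normalized CPM in FFA2 fl/fl and 17.1, 15.5, 15.0 and 24.6 in Adipoq-F2-KO libraries. It did not overlap, and the log2 fold change was 0.77 (standard error 0.21, edgeR adjusted p = 0.0986). The next smallest p belonged to *P4ha2*, a subunit of the prolyl hydroxylase that stabilises the triple helix, added here after its values were seen, which was lower without overlap at 31.9 ± 1.17 (SD, n = 3) against 22.6 ± 4.07 (SD, n = 4) and a log2 fold change of -0.50 (standard error 0.14, edgeR adjusted p = 0.107).

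Of 14 genes listed for collagen receptors and uptake, 13 were tested, 11 above and 2 below 0 (median 0.29), and 0 were called by edgeR, with 4 higher and 1 lower at an unadjusted p under 0.05. The shares of all tested genes at that level were again 10.5% and 7.37%. DESeq2 called 2 higher (4.34% of all genes), limma voom 1 (0.974%), and edgeR run on every gene with at least 1 count 2 higher and 1 lower (3.76% and 1.16%). *Itgb1*, the beta 1 integrin chain, had the highest level at 337 TPM, with 418, 420.3 and 421 normalized CPM in FFA2 fl/fl and 500.3, 469.7, 487 and 531 in Adipoq-F2-KO libraries. All Adipoq-F2-KO libraries were above the controls, and the log2 fold change was 0.24 (standard error 0.08, edgeR adjusted p = 0.169). *Cd93*, best known from endothelial cells and not as a collagen receptor, had the smallest p of this list. It averaged 103 ± 20.9 normalized CPM in controls (SD, n = 3) and 179 ± 44.1 in Adipoq-F2-KO (SD, n = 4), a log2 difference of 0.80 (standard error 0.18, edgeR adjusted p = 0.0599). It was 1 of the 2 genes of this list that DESeq2 called (DESeq2 adjusted p = 0.000598). Its values did not overlap between genotypes. Of 12 genes listed for collagen cleavage, 9 were tested, 6 above and 3 below 0 (median 0.17), and 0 were called by edgeR, with 3 higher and 0 lower at an unadjusted p under 0.05. At that level 10.5% of all tested genes were higher and 7.37% lower. DESeq2 called 2 higher (4.34% of all genes), limma voom 0 (0.974%), edgeR on halved counts 1 (1.33%), and edgeR run on every gene with at least 1 count 3 (3.76%). *Mmp14*, a membrane-bound collagenase, had the smallest p, with 15.4, 21.7 and 19.6 normalized CPM against 29.9, 36.8, 29.9 and 56.4. The genotypes did not overlap, and the log2 fold change was 1.01 (standard error 0.22, edgeR adjusted p = 0.0554). *Ctsb*, a lysosomal protease, had the highest level at 853 TPM and a log2 fold change of -0.01 (standard error 0.09). The endothelial sum and the fibroblast sum without *Gsn* given above were higher in the Adipoq-F2-KO libraries, while the fibroblast sum with *Gsn* was lower. The part of these other cells in these values was not tested.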

How the data were processed

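RNA-Seq of mature white adipocytes was analysed in 7 libraries, 3 FFA2 fl/fl and 4 Adipoq-F2-KO, grouped by the sample labels. Per the labels, the authors' steps were trimming (Trimmomatic), alignment (STAR) and gene counting (featureCounts). The deposited values are counts without normalization, with exon lengths. Versions and counting options are not given in the sources used here. The labels name GRCm38, but 41 of the 44 chains have other coordinates in the table than in a GRCm38 annotation, so these are given as deposited. The first base of *Col4a1*, for example, is 11362826 as deposited and 11312826 in GRCm38.p6. Deposited gene coordinates and the GRCm38.p6 coordinates of the printed sequences are therefore not on the same scale. Symbols were matched for 52029 of 57010 identifiers. Between 85.5% and 88.8% of counts from 1 to 49 were even, so both mates of a pair appear to be counted. Strand and overlap options are unknown, and 22 bases are shared by *Col4a1* and *Col4a2*. Libraries of a genotype differed beyond sampling noise (chi-square statistics of 41.5 to 165 for each degree of freedom), so none was merged.

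Counts were filtered with filterByExpr, TMM-normalized and tested two-sided with glmQLFit and glmQLFTest of edgeR 4.0.16 (R 4.3.3), with genotype as the only term and Benjamini-Hochberg adjustment over 17039 genes. The study used DESeq2, run here (1.42.0) as an alternative with limma voom (3.58.1), RLE factors, a filter of at least 1 count, halved counts, the replicate number as a block and each library left out. Each standard error is the log2 fold change over the square root of F. P-values set the difference between genotypes against the spread between these libraries, which edgeR estimates partly from all tested genes. Tests were tried on simulated data with known changes. The members and lists were chosen with earlier results of these data known. Values are given by library for the 2 most abundant chains of each class, the 3 largest log2 fold changes in each direction among chains averaging 1 CPM or more and those without overlap, for *Col1a1*, *Col1a2*, *Col6a6* and *Col15a1* by later choice, and for *Loxl2*, *Itgb1* and *Mmp14* of the listed genes. *Serpinh1*, *P4ha2* and *Cd93* are given as means with SDs and *Ctsb* as a log2 fold change.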

Additional observations from a re-analysis of the deposited data

Results flagged for a closer look

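Of 44 values checked in the 4 Adipoq-F2-KO libraries (34 chains, 5 summed levels and 5 ratios), 2 had 1 library far from the other 3, where chance gives about 1 in 20. *Col4a6* had 0.940 normalized CPM in library 3 and 2.44 to 2.55 in the others. *Col13a1*, a transmembrane chain, had 1.66 normalized CPM in library 3 and 0.271 to 0.425 in the others. Both genes have few counts, at most 116 and 60 in a library.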

How the results depend on the processing

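Over all genes, edgeR called 136 higher and 37 lower. DESeq2 called 739 and 253, and a filter of at least 1 count 1071 and 332. With 1 library left out these counts ranged from 0 to 151 higher and from 1 to 30 lower. Those higher were 0 without FFA2 fl/fl library 1 or 3, 35 without library 2, and 8, 13, 151 and 136 without Adipoq-F2-KO libraries 2, 3, 1 and 4, and those lower were 1, 5 and 6 without FFA2 fl/fl libraries 1, 3 and 2 and 3 and 7 without Adipoq-F2-KO libraries 2 and 3. Collagen chains called higher were 0 in edgeR, 3 in DESeq2, 1 in limma voom, 1 with halved counts and 6 with a filter of at least 1 count, and 0 were called lower in any fit. The median log2 fold change of the tested chains was 0.23, and ranged from 0.21 to 0.43 with 1 library left out. With the replicate number as a block it was 0.33, the fit called 191 genes higher and 33 lower, and it changed no chain's call. Libraries with the same number did not deviate together (correlations 0.0315, -0.0242 and -0.0203). The labels state no pairing beyond the number, and a shared litter or preparation was not tested. Of 437 values for chains under these alternatives, 26 had the opposite sign, in 10 chains. With 1 library left out the log2 fold change was -0.30 to 0.90 for *Col4a6*, -0.0697 to 0.26 for *Col5a3*, -0.0823 to 0.0778 for *Col5a1*, -0.11 to 0.0485 for *Col1a1*, -0.83 to 0.29 for *Col16a1*, -0.25 to 0.66 for *Col20a1*, -1.08 to 0.58 for *Col13a1*, -0.76 to 0.34 for *Col8a2*, -0.0191 to 0.20 for *Col6a1* and -0.00706 to 0.24 for *Col6a2*. The block gave 0.0730 for *Col5a1*, -0.30 for *Col20a1* and 0.35 for *Col13a1*, and limma voom -0.13 for *Col20a1* and 0.0905 for *Col13a1*. The cause of these changes was not tested.

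With 3 and 4 libraries the exact permutation test cannot go below 0.0286. Floors cover counting error only, and the chains with few counts have the widest standard errors. The part of other cells in the collagen values was not tested.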
